A study of Mus musculus with 27 samples.

Results

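Transmembrane mucins are large, heavily O-glycosylated proteins anchored in the apical membrane of epithelial cells. Their extracellular part extends into the lumen and forms the glycocalyx, while a short cytoplasmic tail can take part in signalling. On the small intestinal brush border Muc13 and the Muc3 group are typical members, and Muc1, Muc4, Muc16 and Muc20 are known from other wet epithelia. Of the 5 genes listed as transmembrane mucins (Muc1, Muc4, Muc13, Muc16 and Muc20), 4 were found among the 22524 genes with counts. Muc16 matched no gene identifier and was not analysed here.

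Poly-A selected RNA was sequenced from 27 libraries. Organoids were grown from jejunal crypts of C57BL/6J wild-type mice, males of 8 to 12 weeks, and collected at passage 5 to 8. There were 9 cultures, each from its own mouse. SR and SE are specific pathogen-free (SPF) facilities and GF is germ-free, and each housed 3 of the mice as cohoused littermates. A culture was split into a library labelled untreated and one labelled TNF-treated (8 h at 5 ng/mL), and the same pair was made from 3 cultures (M1 to M3) of m-ICc12, an immortalised mouse small intestinal epithelial line. Mouse embryonic fibroblasts (MEF, C57BL/6, all untreated) gave 3 libraries, R1 to R3. The m-ICc12 and MEF samples are cultures of 1 cell source each, so that their spread is that between cultures.

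The total count per library lay between 6071103 and 43843615, and the smallest was the m-ICc12 culture M1 labelled TNF-treated. Levels are TMM-scaled counts per 1000000 counts (CPM). All 6 epithelial markers reached 10 CPM in organoids, against 2 of 6 in m-ICc12 and 0 of 6 in MEF. Of 10 intestinal markers, 9 reached 10 CPM in organoids and 2 in m-ICc12, where Cdx2, Lgr5 and Alpi, among others, stayed below 1 CPM. The 8 fibroblast markers summed to between 3317 and 4376 CPM in MEF and to at most 20.7 CPM in the other libraries, and 4 of them (Pdgfra, Thy1, Dcn and Lum) were below 1 CPM also in MEF. For all 12 organoid and m-ICc12 pairs, the deposited data names give the opposite treatment to the sample labels. The NF-kB target Nfkbia was lower in the library labelled TNF-treated in 9 of 9 organoid cultures and 3 of 3 m-ICc12 cultures. The same held for Tnfaip3, Nfkb2 and Relb, in 9 of 9 and 3 of 3 cultures each. The paper reports Nfkb2 protein as raised by TNF in organoids. It also lists Nfkb2, Tnfaip3 and Relb, as known TNF targets, among the organoid transcripts that changed with TNF. Whether the labels are reversed was not tested, so libraries labelled untreated cannot be taken as untreated cells. Labels were followed throughout, and treatment directions below are directions by label only.

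The genes lie in 2 places. Muc1 is on chromosome 3 (GRCm38, 89229057 to 89233381, plus strand, exons of 2346 bp in all). The other 3 are on chromosome 16, with Muc4 at 32735886 to 32782391 on the plus strand (11757 bp of exons), Muc20 at 32777419 to 32797435 on the minus strand (4027 bp) and Muc13 at 33794037 to 33819934 on the plus strand (3038 bp). Muc4 and Muc20 overlap tail to tail by 4973 bp, and 627 bp of their exons are shared, 5.333% of the Muc4 exons and 15.57% of those of Muc20. Whether the counting used strand was not stated. How reads on the shared exons were assigned was not tested. The m-ICc12 culture M2 had 756 and 463 counts on Muc20 in its libraries labelled untreated and TNF-treated and 0 counts on Muc4 in both, while M3 labelled untreated had 672 counts on Muc20 and 37 on Muc4, the most of any m-ICc12 library. In organoids, the 826 counts on Muc4 in culture Z908 labelled untreated stood beside 0 counts on Muc20.

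As the 4 genes split between organoids and the other cells, the 250 bases before each annotated start (RefSeq, GRCm38.p6) are shown here, 5′ to 3′ on the strand of the gene. Capitals mark matches to 7 motifs that were searched on both strands and are spelled out after the sequences.
Muc13 (chr16:33793787-33794036, plus strand): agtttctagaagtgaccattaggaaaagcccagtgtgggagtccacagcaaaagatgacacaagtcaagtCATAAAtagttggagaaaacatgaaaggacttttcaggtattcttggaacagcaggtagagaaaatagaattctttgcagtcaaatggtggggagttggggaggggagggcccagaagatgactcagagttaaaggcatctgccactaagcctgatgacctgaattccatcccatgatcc
Muc4 (chr16:32735636-32735885, plus strand): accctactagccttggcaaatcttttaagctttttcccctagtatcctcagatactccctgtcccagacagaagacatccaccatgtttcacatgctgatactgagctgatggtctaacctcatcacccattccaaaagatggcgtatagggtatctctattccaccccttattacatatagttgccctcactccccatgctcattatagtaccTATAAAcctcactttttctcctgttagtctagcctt
Muc1 (chr3:89228806-89229055, plus strand): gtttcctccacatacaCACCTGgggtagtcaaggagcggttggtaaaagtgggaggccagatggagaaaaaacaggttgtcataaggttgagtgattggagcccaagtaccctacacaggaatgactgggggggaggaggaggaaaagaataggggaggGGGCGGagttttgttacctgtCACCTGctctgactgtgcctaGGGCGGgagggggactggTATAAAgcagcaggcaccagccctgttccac
Muc20 (chr16:32797436-32797685, minus strand): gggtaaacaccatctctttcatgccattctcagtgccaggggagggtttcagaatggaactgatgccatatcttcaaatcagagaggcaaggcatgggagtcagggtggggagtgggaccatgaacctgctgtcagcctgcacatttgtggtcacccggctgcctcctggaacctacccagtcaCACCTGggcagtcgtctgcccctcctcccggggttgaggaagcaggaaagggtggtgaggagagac
The core promoter element known as the TATA box was searched as TATAAA. It stood at -31 to -26 in Muc1 and at -36 to -31 in Muc4, counted from the base before the start as -1, and it occurs in 12.37% of the 32851 windows of the same length in the table. The GC box, bound by Sp1 and related factors, was searched as GGGCGG. Muc1 held it at -91 to -86 and -49 to -44 (in 32.74% of all windows). An E-box, searched as CACCTG, stood in Muc1 at -234 to -229 and -70 to -65 and in Muc20 at -66 to -61 (in 17.22%). The intestinal homeobox factors of the CDX family were searched with the letters TTTATG. The Muc13 window held such a match on the opposite strand at -180 to -175 (in 10.76%). Read on the opposite strand, the CDX motif differs from the TATA box only in its first letter. For GATA factors the letters AGATAA were used, which occur in 9.99% of windows. The motif of the enterocyte regulator HNF4 was written CAAAGNNCA and is found in 5.49% of windows. For NF-kB, the factor that TNF activates, GGANTTTCC was used, which is found in 1.07% of windows. None of these last 3 motifs occurred in the 4 windows shown. The window of another start of Muc13 in the table, inside the gene, is not shown and held an HNF4 match on the opposite strand at -186 to -178 from that start. These matches describe letters and were not linked to binding.

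Muc13, a transmembrane mucin of the intestinal brush border, was the abundant member in organoids and nearly absent elsewhere. In the 9 organoid libraries labelled untreated it lay between 630 and 773 CPM with a median of 668, a mean of 681 ± 51.4 (SD, n = 9). In those labelled TNF-treated it lay between 610 and 723 CPM with a median of 663. The m-ICc12 cultures M1, M2 and M3 had 1.17, 0.416 and 0.336 CPM when labelled untreated and 3.66, 1.40 and 1.25 CPM when labelled TNF-treated. MEF had 0.546, 0.730 and 0.997 CPM. All 18 organoid libraries were thus above all 9 others. How many of all genes separate in this way, here or for Muc4 below, was not counted. Between the libraries labelled untreated, Muc13 was higher in organoids than in m-ICc12 by 10.12 ± 0.32 (log2 fold change ± SE, 9 and 3 libraries, edgeR adjusted p = 2.6e-13) and higher than in MEF by 9.87 ± 0.20 (adjusted p = 1.8e-15).

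Scaled by exon length, the mean Muc13 level in organoids labelled untreated was 224 FPKM, rank 193 of the 12065 genes above background with a known length. The mean of Muc4 was 1.61 FPKM, rank 9794. Among the other mucins, the mean was 47.6 FPKM for Muc3, 11.6 FPKM for the secreted gel-forming goblet cell mucin Muc2 and 4.02 FPKM for Muc3a. By length-scaled level the order in organoids was therefore Muc13, Muc3, Muc2, Muc3a and Muc4.

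The low Muc13 signal in m-ICc12 and MEF was set beside that of other genes abundant in organoids. Muc13 stood at 0.050% to 0.543% of its organoid mean in the 6 m-ICc12 libraries and at 0.0811% to 0.148% in MEF. The 17 genes of the intestinal, goblet and enterocyte marker lists with at least 100 CPM in organoids had median percentages between 0.0819 and 0.733 in m-ICc12 and between 0.128 and 0.237 in MEF. In each of the 9 libraries, 9 or more of the 17 markers stood above Muc13 in percent. The intestinal genes Sis (sucrase-isomaltase) and Fcgbp (a goblet cell secretory protein) lay at 0.837% and 1.02% in M1 labelled TNF-treated and at 0.0717% and 0.0900% in M3 labelled untreated. By contrast Krt20, a keratin of differentiated epithelium, was at 286% to 426% in m-ICc12. The markers Vil1, Cdh17 and Anpep were in between there, at 2.28% to 5.45%, 1.92% to 3.36% and 0.472% to 9.44%. Where these low counts came from was not tested.

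**Figure D1:**
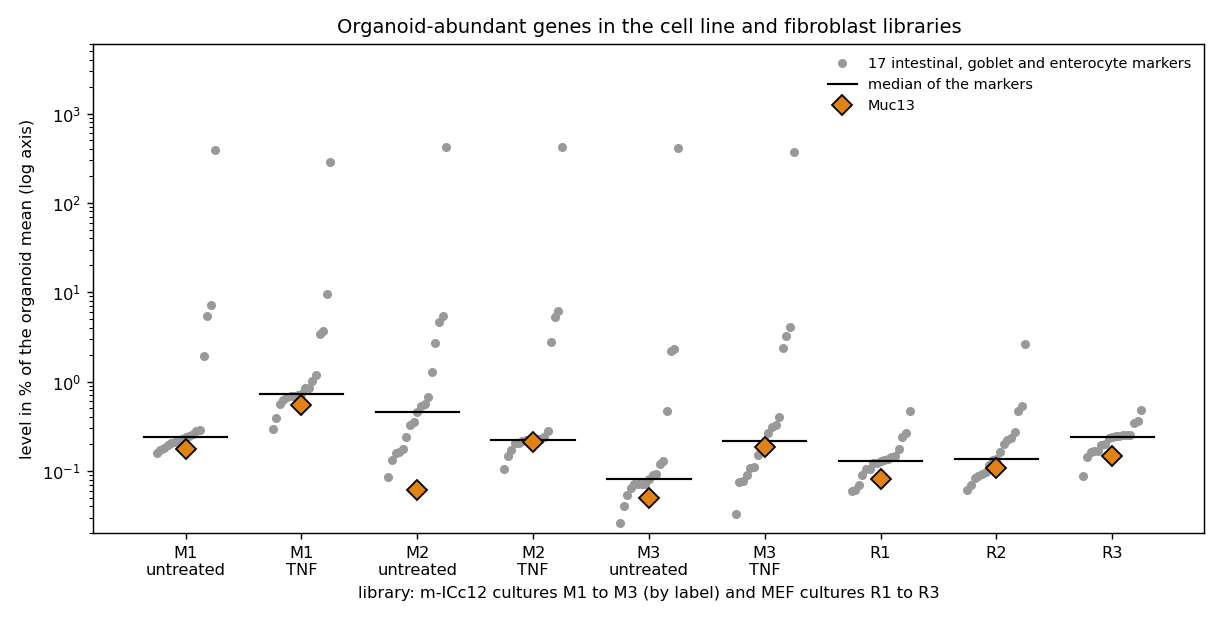
Level of Muc13 (diamonds) and of 17 organoid-abundant marker genes (grey points, with their median as a line) in percent of the organoid mean, on a log axis, in each m-ICc12 and MEF library. Muc13 lay between 0.050% and 0.543% and below the median of the markers in each of the 9 libraries, while Krt20 alone was above 100%.

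Muc4, a large mucin with EGF-like domains that binds Erbb2, was detected in all organoid libraries at a lower and more variable level. In the 9 libraries labelled untreated it lay between 5.77 and 32.0 CPM with a median of 16.6, a mean of 19.0 ± 9.26 (SD, n = 9). In those labelled TNF-treated it lay between 4.91 and 50.3 CPM with a median of 15.9. The m-ICc12 cultures M1, M2 and M3 had 0.0879, 0 and 0.889 CPM when labelled untreated and 0.348, 0 and 0.144 CPM when labelled TNF-treated. MEF had 0.0475, 0.0252 and 0.729 CPM. No library of either cell type reached the lowest organoid library, and 5 of 6 m-ICc12 and 2 of 3 MEF libraries had no more than 3 counts. The exceptions were M3 labelled untreated with 37 counts and R3 with 19. Muc4 was higher in organoids than in m-ICc12 by 5.87 ± 0.98 (log2 ± SE, adjusted p = 7.3e-05) and higher than in MEF by 6.31 ± 0.93 (adjusted p = 1.8e-05). Without M3 the difference from m-ICc12 was 8.81, and without R3 that from MEF was 8.85.

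Muc1, the widely expressed epithelial mucin whose tail binds beta-catenin, was not detected in organoids. All 9 organoid libraries labelled untreated had 0 counts, and the 9 labelled TNF-treated had 3 counts in all, 2 in culture Z910 and 1 in Z918. The m-ICc12 cultures M1, M2 and M3 had 4.19, 3.28 and 2.72 CPM when labelled untreated and 5.05, 6.68 and 1.63 CPM when labelled TNF-treated. The MEF libraries R1, R2 and R3 had 0.712, 2.04 and 3.64 CPM. Against the floor of 3 counts over the 9 organoid libraries labelled untreated, Muc1 was 267-fold higher in m-ICc12 and 152-fold higher in MEF. The exact 95% lower bounds of the pooled ratios were 216 and 123, counting error only. The fitted differences of organoids were -9.66 ± 1.18 from m-ICc12 (log2 ± SE, edgeR adjusted p = 0.00012) and -8.93 ± 1.26 from MEF (adjusted p = 0.00031), and their size depends on the prior count. The m-ICc12 and MEF values overlapped, and their difference of 0.62 ± 0.68 did not pass the test (adjusted p = 0.45). Muc1 was thus detected in every fibroblast library and in none of the organoid libraries labelled untreated.

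Muc20, a mucin that binds the receptor Met, was found in m-ICc12 and hardly elsewhere. The cultures M1, M2 and M3 had 15.3, 16.6 and 16.2 CPM when labelled untreated, a mean of 16.0 ± 0.643 (SD, n = 3), and 12.4, 12.5 and 6.25 CPM when labelled TNF-treated. MEF had 2 counts in all 3 libraries together against 1950 in m-ICc12 labelled untreated, a ratio of pooled CPM of 867 (95% exact interval 240 to 7161, counting error only). The fitted difference was 9.49 ± 0.68 (adjusted p = 8.0e-08), and without R2, which held both MEF counts, it was 12.25. In organoids 16 of 18 libraries had no more than 1 count. The other 2 were culture Z912 labelled TNF-treated with 27 counts (0.860 CPM) and culture Z913 labelled untreated with 12 counts (0.477 CPM), both from the facility SE. Their partner libraries of the same cultures had 0 counts and 1 count. Organoids were lower than m-ICc12 by -7.82 ± 1.05 (adjusted p = 6.8e-06), and without culture Z913 the difference was -9.73. The organoid against MEF comparison was not tested, since Muc20 was below background in both.

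**Figure D2:**
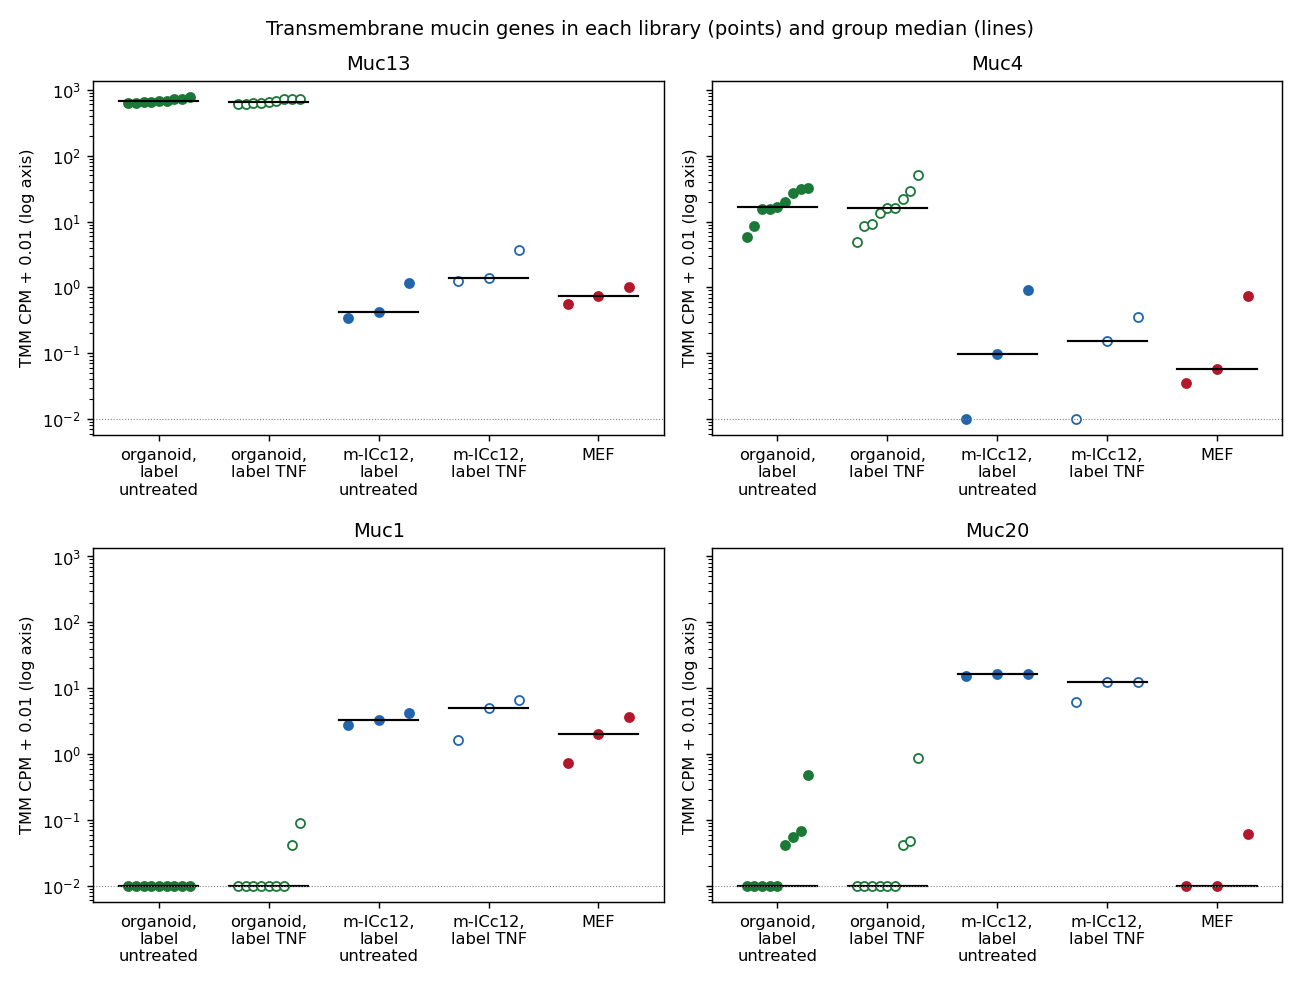
TMM CPM plus 0.01 on a log axis for each library, by cell type and treatment label, with lines at the group medians and a dotted line at 0 CPM. Muc13 and Muc4 are high in the organoid libraries, Muc1 is at 0 in all organoid libraries labelled untreated, and Muc20 is high in m-ICc12.

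Counted by comparison, 4 of 4 members tested differed between organoids and m-ICc12 (2 higher and 2 lower in organoids), where 60.9% of all 12962 genes tested did. Between organoids and MEF, 3 of 3 differed, with 67.2% of all genes called. Between m-ICc12 and MEF, 1 of 3 did, with 59.3% of all genes called. With a majority of all genes called, these counts say little about the mucins, and the sizes of the differences are the result. With the treatment labels exchanged, the differences between organoids and m-ICc12 were 8.62 for Muc13, 7.66 for Muc4, -8.02 for Muc1 and -6.50 for Muc20, and that of Muc1 between organoids and MEF was -7.01. Fewer cells of a type and less RNA per cell cannot be told apart in these bulk samples.

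**Figure D3:**
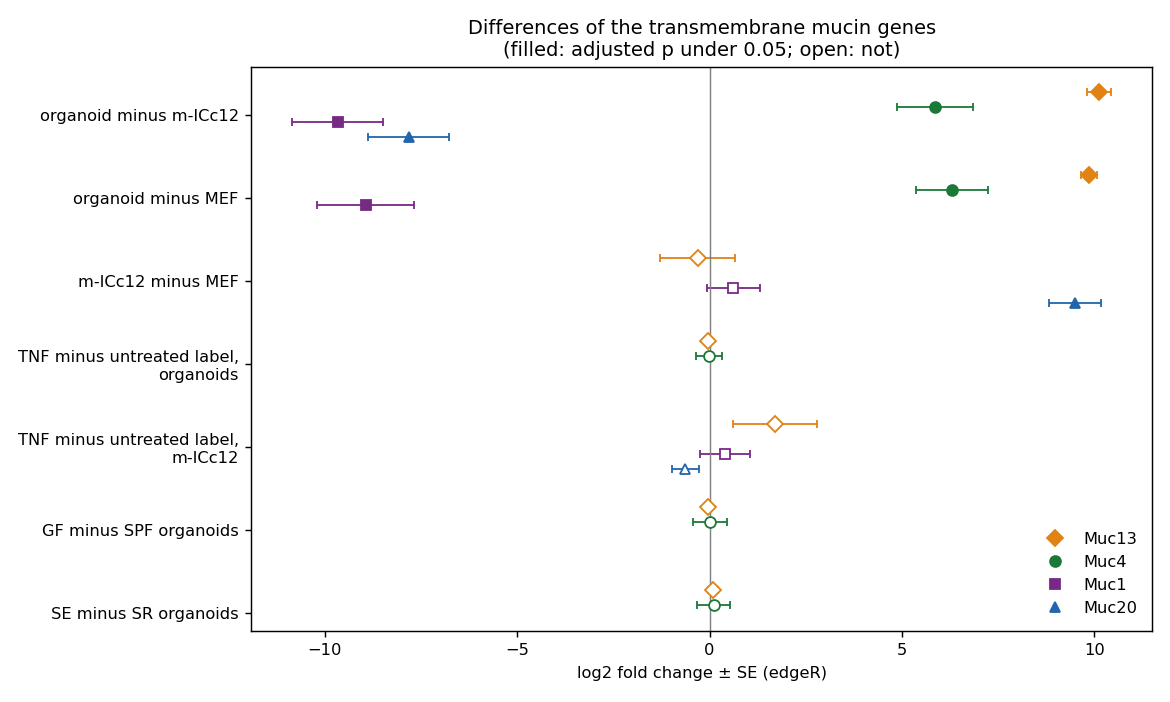
Log2 fold changes with their standard errors (edgeR) of the 4 mucin genes in 7 comparisons, filled where the adjusted p was under 0.05. The cell type differences reach from -9.66 to 10.12, and the differences by treatment label and facility were all open.

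Within organoids, the level of Muc13 was nearly the same in all cultures. The culture means (mean of both libraries) lay between 620 CPM in Z919 and 748 CPM in Z913, a ratio of 1.21. Their SD was 0.10 on the log2 scale, and 4.16% of the genes above background in organoids had a smaller SD. Among the 354 genes with a mean within 2-fold of that of Muc13, 23.7% had a smaller SD.

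Muc4 varied far more. The culture means lay between 5.34 CPM in Z918 and 41.2 CPM in Z919, a ratio of 7.70, and both extremes came from the germ-free facility. The SD between cultures was 0.87 on the log2 scale, more than that of 87.4% of all genes above background and of 97.9% of the 3547 genes with a mean within 2-fold of that of Muc4. A wide spread was not particular to Muc4. The SD was 0.43 for Muc2, 0.59 for Muc3 and 0.62 for Muc3a. These exceeded 97.9%, 99.1% and 75.7% of the 4330, 4012 and 1957 genes within 2-fold of their own means. Muc4 values are given below for the library labelled untreated first and the one labelled TNF-treated second. In SR, Z908 had 30.8 and 29.4 CPM, Z909 had 15.4 and 9.23 CPM and Z910 had 8.39 and 13.5 CPM. In SE, Z911 had 26.8 and 15.9 CPM, Z912 had 16.6 and 15.9 CPM and Z913 had 15.5 and 8.39 CPM. In GF, Z917 had 19.6 and 22.1 CPM, Z918 had 5.77 and 4.91 CPM and Z919 had 32.0 and 50.3 CPM. The values of the 3 facilities overlapped.

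Both libraries of a culture tended to be high or low together for Muc4. Over the 9 cultures, Pearson's r between the libraries labelled untreated and TNF-treated was 0.82 (exact permutation p = 0.0074, adjusted 0.052) and Spearman's rho 0.92 (exact permutation p = 0.0013, adjusted 0.028). Without the 2 cultures farthest from the median (Z910 and Z918) r was 0.85. For Muc13, r was 0.77 (exact permutation p = 0.021, adjusted 0.088) and rho 0.82 (exact permutation p = 0.011, adjusted 0.045), and r was 0.53 without Z911 and Z913. After centring each facility, r was 0.88 for Muc4 and 0.70 for Muc13. The adjustment was over 21 relations computed in these cultures, and all permutation tests were two-sided. With 3 cultures per facility, r was not computed within single facilities.

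**Figure D4:**
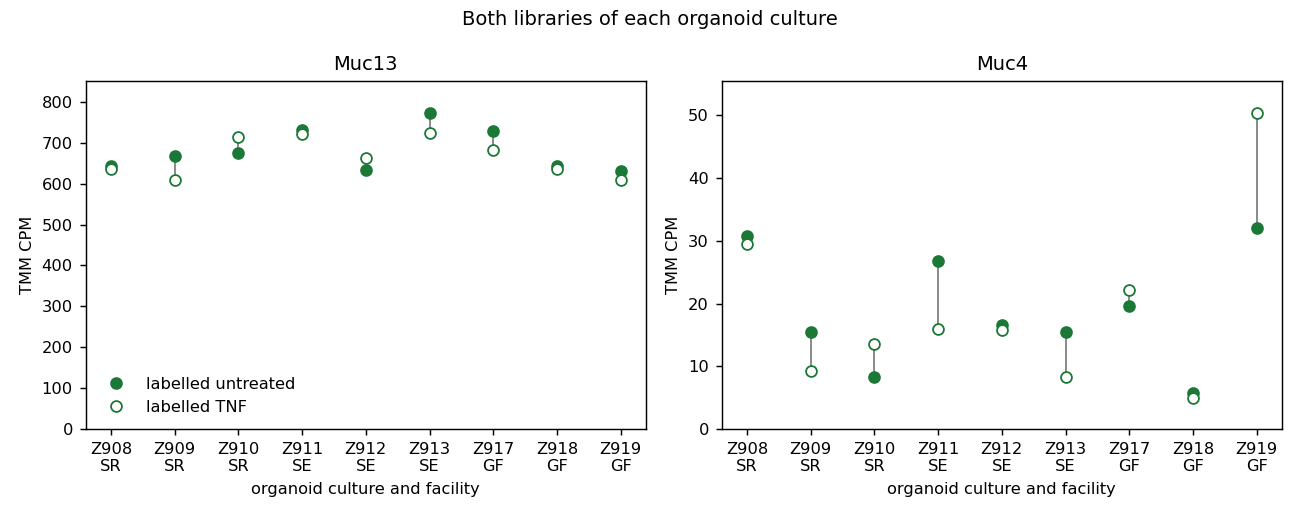
TMM CPM of Muc13 and Muc4 in the library labelled untreated (filled) and the one labelled TNF-treated (open) of each organoid culture, joined by a line, with the facility under the culture number. Muc13 stays between 610 and 773 CPM, while Muc4 reaches from 4.91 CPM in Z918 to 50.3 CPM in Z919.

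The culture means of Muc4 were compared with those of the other organoid mucins and with the mean log2 CPM of marker lists for 6 epithelial cell types. Muc4 was higher in cultures with higher stem cell markers (Lgr5, Olfm4, Ascl2, Smoc2, Axin2 and Slc12a2), with r = 0.87 (exact permutation p = 0.0026, adjusted 0.052) and rho = 0.83 (exact permutation p = 0.0083, adjusted 0.043). Without Z918 and Z919 r was 0.85, and after centring each facility it was 0.90. It was lower in cultures with higher tuft cell markers (4 of the 5 listed genes were above background), with r = -0.76 (exact permutation p = 0.019, adjusted 0.088) and rho = -0.85 (exact permutation p = 0.0061, adjusted 0.043). Without Z918 and Z919 r with the tuft markers was -0.70, and it was -0.87 after centring. For the enterocyte markers r was -0.72 (exact permutation p = 0.028, adjusted 0.097) and rho -0.60 (exact permutation p = 0.097, adjusted 0.29). For the goblet, Paneth and enteroendocrine markers, r was -0.55, -0.01 and -0.52, with adjusted p-values of 0.29, 0.98 and 0.31 (exact permutation). The points share their libraries, and only the rank correlations passed the adjusted threshold. Whether the relations with the stem cell, tuft cell and enterocyte markers are separate was not tested.

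**Figure D5:**
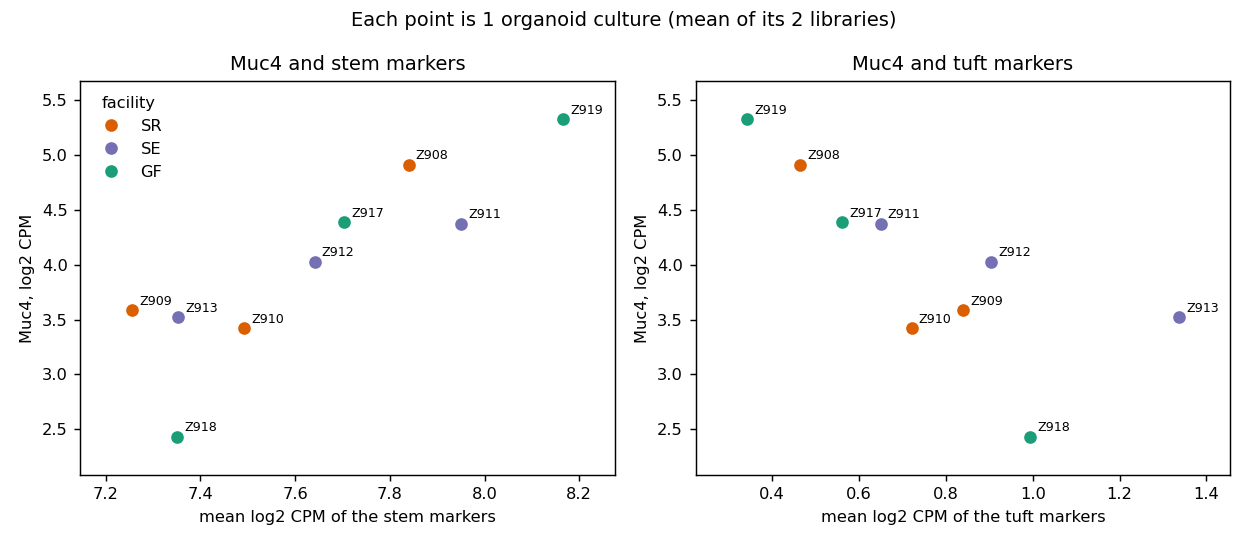
Mean log2 CPM of Muc4 against the mean log2 CPM of the stem cell markers and of the tuft cell markers, 1 point per organoid culture, coloured by facility. Z919 is highest in Muc4 and in the stem cell markers and lowest in the tuft cell markers.

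Muc13 and Muc4 did not follow each other, with r = -0.16 and rho = -0.32 (exact permutation p = 0.68 and 0.41). Muc13 was higher in cultures with higher Muc3, another brush border transmembrane mucin, with r = 0.81 (exact permutation p = 0.0064, adjusted 0.052) and rho = 0.85 (exact permutation p = 0.0061, adjusted 0.043). Without Z911 and Z913 r was 0.67. The range of Muc13 in this relation is small, since its highest culture mean was 1.21 times its lowest, against 3.83 times for Muc3. Against the 6 marker lists, r of Muc13 lay between -0.50 (enteroendocrine) and 0.64 (Paneth), and the smallest adjusted p of the exact permutation tests was 0.19 for r and 0.23 for rho.

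The genes most alike to Muc4 over the 9 culture means, by Pearson's r of log2 CPM among 12064 genes above background, were Gpsm1 (0.96), Ces1b (0.93) and Aldh7a1 (0.92). Those most alike to Muc13 were Tomm22 (0.95), S100a10 (0.93) and Ifit1bl1 (0.93). Over all 27 libraries, where r mainly follows the cell types, the 3 most alike genes were Tnk1, Otc and Aldh1b1 for Muc13 (all 1.00), Plekhd1, Smarcd2 and Pnpla1 for Muc4 (0.97, 0.96 and 0.96), Foxn1, Klhl30 and Pla2g7 for Muc1 (0.99, 0.98 and 0.98), and Hoxc6, Stra6 and AU021092 for Muc20 (all 0.97).

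TNF was added to ask how the epithelial cells respond to an inflammatory cytokine. By label, neither mucin of the organoids differed. Muc13 was lower in the library labelled TNF-treated in 7 of 9 cultures and higher in 2, with ratios between 0.912 and 1.05 and a fitted log2 difference of -0.04 ± 0.06 (edgeR adjusted p = 0.948). Muc4 was lower in 6 of 9 and higher in 3, with ratios between 0.541 and 1.61 and a log2 difference of -0.01 ± 0.35 (adjusted p = 0.995). Hence 0 of 2 members tested were called, where 1.39% of all 12104 genes tested were. Of the 5 NF-kB targets used to check the labels, 4 passed, each at a lower level where the label says TNF-treated, and Nfkbia had a log2 difference of -2.66 ± 0.10 (adjusted p = 6.4e-17).

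In m-ICc12, 0 of 3 members tested were called by treatment label, where 0.11% of all 11861 genes tested were. Muc20 was lower in the library labelled TNF-treated in 3 of 3 cultures, with ratios of 0.809, 0.754 and 0.387 and a log2 difference of -0.63 ± 0.34 (unadjusted p = 0.085, edgeR adjusted p = 0.996). Muc1 had ratios of 1.21, 2.04 and 0.601 and a log2 difference of 0.40 ± 0.66. Muc13 was higher in 3 of 3 cultures, with a log2 difference of 1.70 ± 1.08 (unadjusted p = 0.14, edgeR adjusted p = 0.996), from 40, 19 and 14 counts labelled untreated and 21, 52 and 26 counts labelled TNF-treated. The median percentage of the 17 organoid-abundant markers was 0.240, 0.460 and 0.0819 in the m-ICc12 libraries M1, M2 and M3 labelled untreated and 0.733, 0.224 and 0.214 in those labelled TNF-treated, so that it was higher in the same library as Muc13 in M1 and M3 and lower in M2. Their part in the difference of Muc13 was not tested.

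The difference by label in m-ICc12 minus that in organoids was tested as an interaction, in which 0 of 4 members were called, where 0.159% of all 13183 genes tested were. It was largest relative to its error for Muc13, at 1.49 ± 0.34 (unadjusted p = 0.00018, edgeR adjusted p = 0.082). With the culture as a block the Muc13 interaction was 1.78 and passed the threshold (adjusted p = 1.1e-05), and it also passed without culture M1, at 1.85 (adjusted p = 7.9e-05). This value rests on the 14 to 52 counts per m-ICc12 library given above. Those of Muc1, Muc4 and Muc20 were -1.52 ± 0.90, -1.78 ± 1.42 and -1.32 ± 1.75, with adjusted p-values between 0.88 and 1.00.

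The facilities were compared to ask whether the microbiota of the donor mouse leaves a trace in organoids. The mice of a facility were cohoused littermates, so that facility, litter and cage cannot be told apart here. The p-values measure the spread between these mice, not between facilities. In the libraries labelled untreated, Muc13 was at 662 ± 17.1 CPM in SR, 712 ± 71.9 in SE and 668 ± 53.2 in GF (SD, n = 3 each). Muc4 was at 18.2 ± 11.4 CPM in SR, 19.7 ± 6.24 in SE and 19.1 ± 13.1 in GF. The means of Muc4 differed by far less than the cultures of each facility. GF minus SPF was -0.04 ± 0.11 for Muc13 and 0.02 ± 0.44 for Muc4 on the log2 scale (edgeR adjusted p = 1.00 for both, 3 against 6 cultures), and for Muc4 it was 0.74 with the treatment labels exchanged (adjusted p = 1.00). SE minus SR was 0.10 ± 0.13 for Muc13 and 0.11 ± 0.42 for Muc4 (adjusted p = 1.00 for both). So 0 of 2 members were called in either comparison, where 0.0325% of 12315 genes and 0% of 12219 genes were. At an unadjusted p under 0.05 edgeR gave 491 and 486 genes, and neither mucin was among them. DESeq2 called 21 and 8 genes, none of them a member.

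Other mucin genes were found for 11 of 16 listed. Muc2, Muc3 and Muc3a were present in organoids, at 37.8 to 171 CPM, 42.2 to 184 CPM and 1.98 to 16.7 CPM, and were at or below 0.766 CPM in every m-ICc12 and MEF library. Parm1, an androgen-regulated mucin-like membrane protein, was highest in m-ICc12 at 131 ± 17.7 CPM (SD, n = 6), against 22.8 ± 7.94 in organoids (n = 18) and 0.130 ± 0.0731 in MEF (n = 3). Mcam, a cell adhesion molecule of mesenchymal and endothelial cells, was highest in MEF at 157 ± 26.98 CPM and was 25.9 ± 5.93 in m-ICc12 and 2.38 ± 2.10 in organoids. Cd164, a sialomucin found in many cells, was at 386 ± 32.5 CPM in organoids, 297 ± 29.3 in m-ICc12 and 239 ± 19.1 in MEF. Muc5ac, Muc15 and Emcn had 0 counts throughout, and Muc5b and Muc6 had 32 and 45 counts in m-ICc12 against 1 and 0 in organoids. The 6 of these genes tested between organoids and m-ICc12 were all called, 4 higher (Muc2, Muc3, Muc3a and Cd164) and 2 lower (Parm1 and Mcam). With 60.9% of all 12962 genes called there, this count says little about these genes. By treatment label none of the genes tested was called by edgeR, where 1.39% of all genes were in organoids and 0.11% in m-ICc12. By facility none was called either, where 0.0325% (GF minus SPF) and 0% (SE minus SR) of all genes were.

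The enzymes that build O-glycans, which carry the mass of a mucin, were also mostly higher in organoids. Of 27 enzymes, 17 were higher and 5 lower than in m-ICc12, with a median log2 difference of 1.93, against 0.03 over all genes tested. Of all 12962 genes tested there, 4100 were higher and 3799 lower. Against MEF, 19 enzymes were higher and 3 lower, with a median of 3.44 (0.03 over all genes tested). Of all 13144 genes tested against MEF, 4544 were higher and 4285 lower. The largest differences from m-ICc12 were those of St6galnac1 (9.71 ± 1.505), which caps the first sugar with sialic acid, Gcnt4 (9.62 ± 0.39), a core branching enzyme, and Fut4 (9.25 ± 1.42), a fucosyltransferase. The core 1 enzyme C1galt1 was lower in organoids than in m-ICc12 by -1.07 ± 0.18 (edgeR adjusted p = 6.9e-05), and its chaperone C1galt1c1 differed by 0.15 ± 0.21. By treatment label in organoids, 1 of 26 enzymes tested was called, where 1.39% of all genes tested were. This was Galnt7, which adds further first sugars to partly glycosylated mucin. It was 0.41 ± 0.08 higher in the libraries labelled TNF-treated (edgeR adjusted p = 0.0029).

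Partners and sheddases of these mucins were mostly lower in organoids than in m-ICc12, with 8 of 13 tested lower and 2 higher (median -1.11, against 0.03 over all genes). Of all 12962 genes tested, 3799 were lower and 4100 higher. Against MEF the partners and sheddases were more evenly split, with 7 of 14 lower and 5 higher (median -0.28, against 0.03 over all genes). Of all 13144 genes tested against MEF, 4285 were lower and 4544 higher. The single genes that follow are given against m-ICc12. Met, the receptor that Muc20 binds, was lower in organoids by -1.92 ± 0.14 (edgeR adjusted p = 3.8e-09). Msln, a partner of Muc16 on other epithelia, was lower by -3.44 ± 0.37 (adjusted p = 5.8e-07), and Lgals3, a galectin that binds mucin glycans, by -4.31 ± 0.35 (adjusted p = 1.7e-08). Erbb2, the partner of Muc4, differed by 0.03 ± 0.14 (adjusted p = 0.88), while Erbb3 was higher by 2.04 ± 0.18 (adjusted p = 6.5e-08). The shedding proteases Adam10 and Adam17 differed by 0.25 ± 0.16 (adjusted p = 0.17) and by -0.75 ± 0.15 (adjusted p = 0.00032). The 10 genes of microvillar adhesion and the apical scaffold, on which brush border mucins stand, were mostly higher in organoids. Against m-ICc12, 8 were higher and 1 lower (median 4.21), where 60.9% of all genes tested were called. Against MEF, 10 of 10 were higher (median 9.20), where 67.2% of all genes tested were called. The median over all genes was 0.03 in both comparisons. None of these 10 microvillar genes was called by treatment label in organoids. Of the 13 partners and sheddases tested there, 1 was called, where 1.39% of all genes tested were. This was Ctnnb1 (beta-catenin, which binds the tail of Muc1), lower by -0.25 ± 0.06 in the libraries labelled TNF-treated (edgeR adjusted p = 0.023).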

How the data were processed

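Gene counts of all 27 libraries were used. Per the labels and the methods, the authors removed adapters with Trimmomatic, aligned the single-end reads to GRCm38 (Ensembl) with STAR and counted them per gene. The processing notes name STAR 2.5.4b and featureCounts, while the methods name GenomicRanges for the counting. The deposited values are raw counts, not normalized. The library kit is called stranded in the labels, while the methods name a TruSeq RNA kit and do not call it stranded. The use of strand and of multi-mapping reads in counting is not given in the sources used here.

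The members and gene lists were chosen with earlier results of these data known. Identifiers were matched to GENCODE vM21 (22214 of 22524). Counts were fitted with edgeR 4.0.16 (TMM, quasi-likelihood F-test, R 4.3.3) over all genes above background, without covariates. Background was a minimum of 10 counts reached by 50% or more of a compared group's libraries. Genes were called at a Benjamini-Hochberg adjusted p under 0.05. SE is the fold change divided by the root of F. Each cell type comparison used the libraries labelled untreated. CPM were scaled over all 27 libraries, and FPKM were obtained from CPM and merged exon length. Log2 CPM used a prior count of 2. A floor of 3 counts corresponded to 0.0657 to 0.523 CPM per library, and intervals and floors cover counting error only. Correlations over cultures used exact permutation tests (scipy 1.17.1).

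The genes named were the members, the mucins found, genes bearing directly on a member, at most 3 called genes per other list and the 3 most alike genes. Genes such as Krt20, Sis, Fcgbp, Vil1, Cdh17, Anpep, C1galt1 and C1galt1c1 were named after their values were seen. Both libraries of an organoid culture come from the same mouse, and their deviations from the label means correlated with r between 0.082 and 0.311. In m-ICc12 r was between -0.007 and 0.092. Alternatives were DESeq2 1.42.0, RLE factors, no filter on low counts, the thresholds of the study (p of at most 0.05 and log2 difference of at least 0.5), all libraries in 1 fit, treatments exchanged, libraries of a culture summed, facility as covariate, culture as block and each culture left out. MEF and m-ICc12 cultures have no stated independent origin, so p-values measure the spread between these samples.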

Additional observations from a re-analysis of the deposited data

Results flagged for a closer look

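The values of 3 single organoid libraries stood far from the other 8 libraries of their label, measured as the gap to the nearest library relative to the whole range. About 1 in 20 groups is expected to be flagged by chance, and 7 groups were tested. Whether that rate holds where most libraries are at 0 or 1 count, as for Muc1 and Muc20 in organoids, was not tested. The number flagged is therefore not read as an excess. Muc20 was at 0.860 CPM (27 counts) in culture Z912 labelled TNF-treated, where the next library had 0.0375 CPM, and at 0.477 CPM (12 counts) in culture Z913 labelled untreated, where the next had 0.0579 CPM. Muc1 was at 0.0798 CPM in culture Z910 labelled TNF-treated, which is 2 counts and within the floor of 3 counts.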

How the results depend on the processing

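For the organoid comparisons with m-ICc12 and MEF, 126 of 126 alternative values of single members kept their direction and call. Against m-ICc12, Muc13 lay between 8.62 and 10.84, Muc4 between 5.28 and 8.81, Muc1 between -9.73 and -8.02 and Muc20 between -9.73 and -6.50, and the end nearer 0 came with exchanged labels for all but Muc4. The number of members called changed only for the difference by treatment label between m-ICc12 and organoids, where 0 were called: 1 (Muc13) was called with DESeq2, with the culture as replicate block, with the thresholds of the study, and without culture M1 (0 to 1 over the cultures left out). The cause was not tested. The Muc13 interaction was 1.49 with DESeq2 (adjusted p = 0.00015) and 1.78 with the block. The block changed no other call of a member.

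Exchanging the treatments within pairs turns the differences by label round by construction: Muc4 0.013 and Muc13 0.037 in organoids, Muc1 -0.40, Muc20 0.63 and Muc13 -1.70 in m-ICc12, and Muc1 1.52, Muc4 1.78, Muc20 1.32 and Muc13 -1.49 in the interaction. It also turned Muc13 between m-ICc12 and MEF to 1.44 and Muc4 between SE and SR to -0.38. With the libraries of a culture summed these were 0.41 and -0.050. Muc4 GF minus SPF went from 0.02 to 0.74 with exchanged treatments and to 0.39 with the libraries summed. With all 27 libraries in 1 fit the Muc20 interaction was 0.040. Leaving out 1 culture gave ranges across 0 for Muc4 by label in organoids (-0.22 to 0.090), Muc4 GF minus SPF (-0.57 to 0.44), Muc4 SE minus SR (-0.24 to 0.72), Muc1 by label in m-ICc12 (-0.055 to 0.67), and the interactions of Muc4 (-2.88 to 0.51) and Muc20 (-3.31 to 1.92). None of these values passed the threshold.

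Over all genes, the calls by treatment label went from 168 to 397 in organoids with the block. They went from 13 to 46 with DESeq2, 30 without the filter, 29 with all libraries, 6 with the block and 93 without M2 in m-ICc12. In the interaction they went from 21 to 74 with DESeq2, 103 with the block, 6 with all libraries, and to 11 and 40 without M2 and M3. GF minus SPF went from 4 to 21 with DESeq2, 29 with all libraries, 7 with the libraries summed and 2 to 5 with 1 culture left out, and SE minus SR from 0 to 8 with DESeq2, 5 without the filter, and 35 and 6 without Z909 and Z912. The 3 most alike genes shared 3 of 3 with a prior count of 0.5 over the 9 cultures, and 1 to 2 of 3 over the 27 libraries. Genes with few counts, as Muc13 and Muc4 in the lines, are limited by depth.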
